A study of Mus musculus with 14 samples.

Results

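Interferon-induced genes were examined in the mouse hypothalamus as a list of 39 genes, of which 34 were measured among the 17097 genes tested. The list was drawn up with the fasted against fed difference of these arrays known, so the members were selected on that difference. Its values and its counts of calls are a description and support nothing. It was divided into type I antiviral genes (24 measured of 27 listed), immunity GTPases (8 of 8) and genes of antigen presentation (2 of 4). Isg15, Bst2, Ifi44, Tap1 and B2m were listed and not analysed here.

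Interferons are cytokines that cells release when they sense viral nucleic acid. Type I interferon acts through the receptor chains Ifnar1 and Ifnar2 and a complex that contains Stat2 and Irf9, which binds the interferon-stimulated response element in the promoters of antiviral genes. Interferon gamma acts through Ifngr1 and Ifngr2 and the gamma-activated sequence, and also raises immunity GTPases and the immunoproteasome. In the brain, microglia, endothelial cells, astrocytes and neurons can all respond, and a low tonic level of these genes is present without infection.

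Hypothalamic RNA came from mice of 12 weeks of age with a mixed background of the strains C57Bl/6J, FVB/N and 129. The 4 groups were POMC-specific Mfn1 knockout (KO) mice fasted for 16 h (KO fasted, n = 3), control mice fasted for 16 h (control fasted, n = 3), KO mice fed at random (KO fed, n = 4) and control mice fed at random (control fed, n = 4). Mfn1 encodes a mitochondrial fusion protein, and POMC neurons, which release melanocortin peptides that curb feeding, are a small share of hypothalamic cells. The labels give the controls no genotype beyond that word and do not state how many mice an array represents. The p-values therefore cover only the spread among these arrays, which may be partly technical.

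The values are log2 expression. The arrays had medians of 4.98 to 5.05, and any pair of them had a Pearson's r of 0.9908 to 0.9968 over its probe sets. RNA degradation shows in control probe sets at the 3' and 5' ends, whose difference was -0.03 to 0.12 for Gapdh and 0.77 to 0.94 for Actb, and was 0.05 and 0.89 on KO fed replicate 1. Mfn1 itself was at 9.03 to 9.12 on KO arrays and at 8.99 to 9.10 on control arrays, and whether its probe set lies in the deleted part is not known, so it does not check the labels. Probe sets without a target had a median of 3.64, and 11 of the 34 members had a mean under 5 over 14 arrays, where RMA compresses differences. KO fed replicate 1 stood apart from the other fed arrays in the members, so each result that rests on it is given with and without it. The numbers in the sample titles are uneven between the feeding states. All 6 fasted arrays and KO fed replicate 1 have numbers of a low series, and after a gap the 7 other fed arrays form a high series.

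Promoter sequences of 8 members are shown as examples of windows that hold the binding motifs of interferon-activated factors near the transcript start. They come from RefSeq, GRCm38.p6, and are written 5' to 3' on the strand of the gene up to the base before the start. Capitals mark the core of the interferon-stimulated response element, GAAANNGAAA or its reverse complement, and the gamma-activated sequence, TTCNNNGAA. The type I antiviral genes Ifit1 and Ifit3 each hold 2 matches of the response element.
Ifit1, chr19:34640770-34640888, plus strand: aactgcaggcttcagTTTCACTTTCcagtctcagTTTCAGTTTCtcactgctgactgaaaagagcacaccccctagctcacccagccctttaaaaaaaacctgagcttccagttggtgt
Ifit3, chr19:34583358-34583528, plus strand: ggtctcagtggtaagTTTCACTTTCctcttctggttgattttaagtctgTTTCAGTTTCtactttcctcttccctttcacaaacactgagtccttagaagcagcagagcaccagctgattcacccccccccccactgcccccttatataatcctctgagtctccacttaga
Among the guanylate-binding GTPases, Gbp2 holds 1 match and Gbp3 holds 2 that overlap.
Gbp2, chr3:142620589-142620662, plus strand: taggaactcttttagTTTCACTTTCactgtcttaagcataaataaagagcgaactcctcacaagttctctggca
Gbp3, chr3:142559984-142560043, plus strand: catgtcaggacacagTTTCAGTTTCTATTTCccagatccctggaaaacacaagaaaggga
Among the immunity-related GTPases on chromosome 11, the gamma-activated sequence of Tgtp1, Igtp and Irgm2 starts 11 bases before the response element, and Irgm1 holds 2 overlapping matches of the response element alone.
Tgtp1, chr11:48992247-48992349, minus strand: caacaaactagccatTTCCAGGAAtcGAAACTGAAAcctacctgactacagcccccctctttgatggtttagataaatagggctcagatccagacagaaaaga
Igtp, chr11:58199496-58199555, plus strand: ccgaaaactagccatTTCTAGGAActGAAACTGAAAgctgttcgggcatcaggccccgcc
Irgm2, chr11:58214887-58214976, plus strand: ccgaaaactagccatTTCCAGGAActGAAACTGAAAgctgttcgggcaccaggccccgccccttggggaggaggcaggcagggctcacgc
Irgm1, chr11:48871421-48871465, minus strand: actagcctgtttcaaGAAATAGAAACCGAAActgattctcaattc

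The window searched ran from 250 bases before to 50 bases after the start, on both strands, and was given for 25 of the 34 measured members. The response element core occurred in 15 of these 25 (60.0%), against 3.99% of 27025 genes with such a window. By class it occurred in 6 of 6 immunity GTPases, 9 of 17 type I antiviral genes and 0 of 2 genes of antigen presentation. The gamma-activated sequence occurred in 7 of 25 (28.0%), against 9.55% of all genes, and both motifs together in 4 of 25 (16.0%), against 0.614%. A majority of members with a window thus carried the response element close to the start. Psmb8, Ifit2 and Ifi35 had a gamma-activated sequence without a response element. Many of these genes are textbook targets of interferon, so the match rate describes the list and is not independent of how such lists arise.

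**Figure D1:**
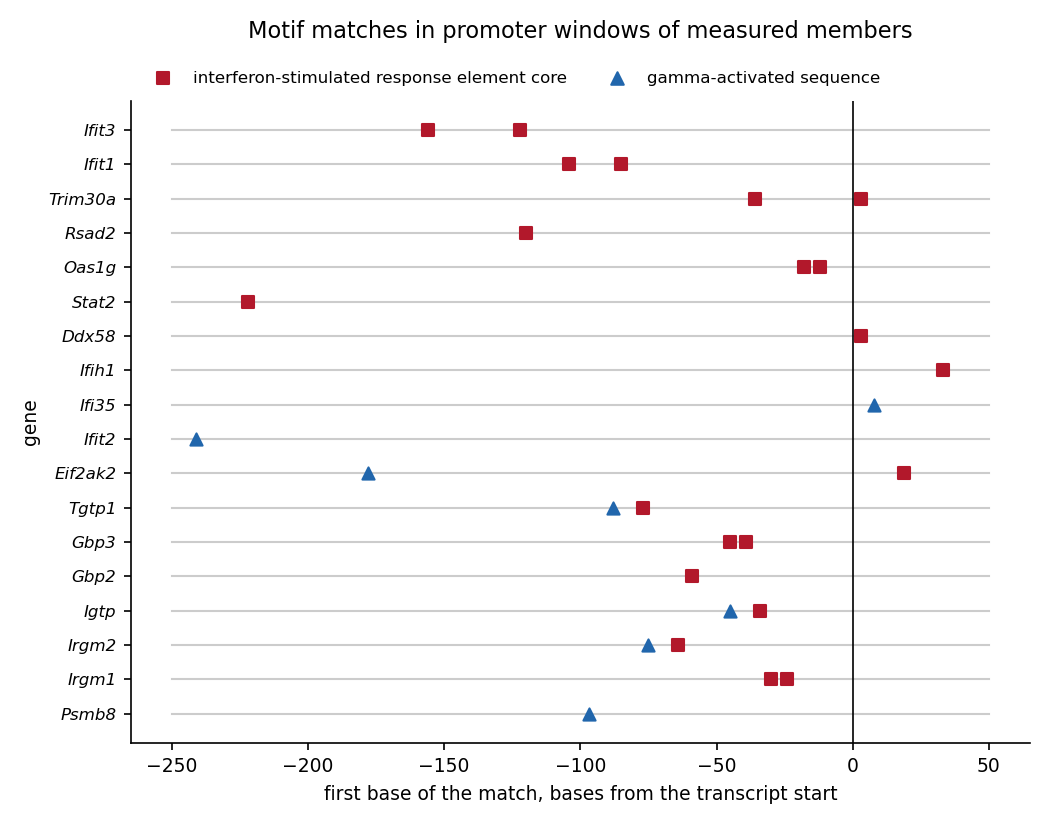
Position of each motif match in the promoter windows of the 18 measured members with at least 1 match, in bases from the transcript start (vertical line at 0). Squares are the interferon-stimulated response element core and triangles the gamma-activated sequence, and in Tgtp1, Igtp and Irgm2 a triangle lies 11 bases before a square.

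Sensors of viral nucleic acid were at low levels, and Ddx58 had the largest fasting difference of the 5 described here. Ddx58, which encodes the RNA sensor RIG-I, was at 4.67, 4.78 and 4.95 in KO fasted mice and 4.69, 5.06 and 4.79 in control fasted mice, against 4.96, 5.11, 5.22 and 5.11 in KO fed mice and 5.20, 5.17, 5.14 and 5.13 in control fed mice, each group from replicate 1 on. All fasted arrays lay below the 7 fed arrays other than KO fed replicate 1, and the averaged difference between fasted and fed was -0.31 ± 0.06 (SE). Ifih1, the sensor of long double-stranded RNA, was at 4.59 to 5.0 on fasted arrays and at 4.56 to 5.39 on fed arrays, with an averaged difference of -0.24 ± 0.11 (SE), and its feeding states overlapped. Dhx58, a regulator of both sensors, differed by 0.08 ± 0.12 (SE) and was highest on KO fasted replicate 3, at 5.36. Zbp1, a sensor of nucleic acids in the Z form, and Eif2ak2, the kinase PKR that halts translation on binding double-stranded RNA, differed by -0.06 ± 0.06 and 0.01 ± 0.09 (SE). These 3 members near 0 and Sp100, a component of nuclear bodies (-0.04 ± 0.09), had the smallest averaged fasting differences of the members. All 4 had means under 5. Within genotypes Zbp1 differed by -0.24 ± 0.08 in control mice and 0.12 ± 0.08 in KO mice (SE). Dhx58 differed by -0.14 ± 0.16 and 0.31 ± 0.16 (SE) in the same order.

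The 3 transcription factors among the members had fasting differences of -0.49 to -0.34. Irf9, the DNA-binding subunit of the complex activated by type I interferon, was at 5.40, 5.31 and 5.61 in KO fasted mice and 5.69, 6.04 and 5.41 in control fasted mice, against 5.70, 6.24, 6.13 and 6.25 in KO fed mice and 6.07, 5.93, 6.21 and 6.02 in control fed mice. Its fasting difference averaged -0.49 ± 0.11 (SE), and control fasted replicate 2 lay among the fed arrays. Stat2, which carries the activating domain of the same complex, was at 4.82 to 5.28 on fasted arrays and at 5.06 to 5.56 on fed arrays, a difference of -0.35 ± 0.10 (SE). Another probe set of Stat2, with a mean of 5.07 against 5.16 for the one used, differed by only -0.08. Irf7, which amplifies the production of type I interferon, was at 4.07 to 4.46 on fasted arrays and at 4.11 to 5.23 on fed arrays, a difference of -0.34 ± 0.13 (SE). Control fed replicate 1 gave its highest value, and without that array the highest fed value was 4.66.

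Among the antiviral effectors, the Ifit proteins bind foreign RNA and block its translation. Ifit3 was at 6.77, 6.70 and 6.59 in KO fasted mice and 6.64, 7.36 and 7.05 in control fasted mice, against 6.76, 8.38, 8.25 and 8.35 in KO fed mice and 8.38, 8.63, 8.35 and 8.25 in control fed mice. Every fasted array and KO fed replicate 1 lay at 7.36 or below, and the 7 other fed arrays lay at 8.25 or above. Ifit1 was at 4.47, 4.55 and 4.53 in KO fasted mice and 4.37, 4.77 and 4.43 in control fasted mice, against 4.45, 5.67, 5.95 and 6.09 in KO fed mice and 6.17, 6.24, 5.29 and 5.19 in control fed mice. The same 7 arrays were low, at 4.77 or below, and the fed arrays above them spread from 5.19 to 6.24, with control fed replicates 3 and 4 at the lower end. Ifit2, a neighbour of both on chromosome 19, was at 7.05, 7.17 and 7.07 in KO fasted mice and 7.24, 7.35 and 7.27 in control fasted mice, against 7.04, 7.33, 7.24 and 7.50 in KO fed mice and 7.32, 7.54, 7.45 and 7.35 in control fed mice. It differed by -0.15 ± 0.06 (SE), against -1.32 ± 0.22 for Ifit3 and -1.11 ± 0.25 for Ifit1, and its feeding states overlapped.

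Oasl2, a protein of the oligoadenylate synthetase family, was at 4.35, 4.96 and 4.61 in KO fasted mice and 4.68, 5.21 and 4.63 in control fasted mice, against 4.59, 5.81, 5.75 and 5.75 in KO fed mice and 6.08, 6.22, 5.78 and 5.88 in control fed mice. Usp18, which strips the ubiquitin-like protein ISG15 from its targets and restrains the type I receptor, was at 4.23, 3.90 and 3.98 in KO fasted mice and 4.19, 4.56 and 3.79 in control fasted mice, against 4.11, 5.51, 5.13 and 5.20 in KO fed mice and 5.47, 5.21, 4.90 and 4.96 in control fed mice. In both genes the 6 fasted arrays and KO fed replicate 1 lay below the 7 other fed arrays, and the averaged differences were -0.99 ± 0.19 and -0.95 ± 0.19 (SE). Oas1g and Oas2, relatives of Oasl2 that activate RNase L, differed by -0.39 ± 0.16 and -0.14 ± 0.05 (SE), and their feeding states overlapped.

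Ifi27l2a, a small interferon-induced protein, was at 4.94, 5.34 and 4.73 in KO fasted mice and 5.06, 5.85 and 4.97 in control fasted mice, against 5.23, 6.41, 6.45 and 6.54 in KO fed mice and 7.15, 6.30, 6.21 and 5.89 in control fed mice. Rtp4, a chaperone of membrane receptors induced by interferon, was at 5.82, 5.99 and 5.90 in KO fasted mice and 5.82, 6.49 and 5.48 in control fasted mice, against 5.60, 7.11, 6.90 and 6.94 in KO fed mice and 7.28, 7.35, 6.71 and 6.82 in control fed mice. Both followed the pattern of Ifit3, with control fasted replicate 2 the highest fasted array, and the differences were -1.12 ± 0.24 and -0.92 ± 0.23 (SE). Trim30a, a member of the TRIM ubiquitin ligase family, was at 5.13 to 5.69 on fasted arrays, at 5.05 on KO fed replicate 1 and at 5.96 to 6.44 on the 7 other fed arrays. Rsad2 (viperin), which makes a nucleotide that stops viral RNA synthesis, was at 5.36 to 6.01 on fasted arrays, at 5.53 on KO fed replicate 1 and at 6.14 to 7.0 on the 7 other fed arrays. Their averaged differences were -0.71 ± 0.15 and -0.62 ± 0.17 (SE), and in both genes no fasted array reached the 7 fed arrays. The remaining effectors, Lgals3bp, a secreted galectin-binding glycoprotein, Parp14, an ADP-ribosyltransferase, Xaf1, a partner of the apoptosis inhibitor XIAP, and Ifi35, a partner of Nmi, differed by -0.51 ± 0.18, -0.38 ± 0.13, -0.34 ± 0.08 and -0.24 ± 0.07 (SE). In each of these 4 genes the feeding states overlapped also without KO fed replicate 1.

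**Figure D2:**
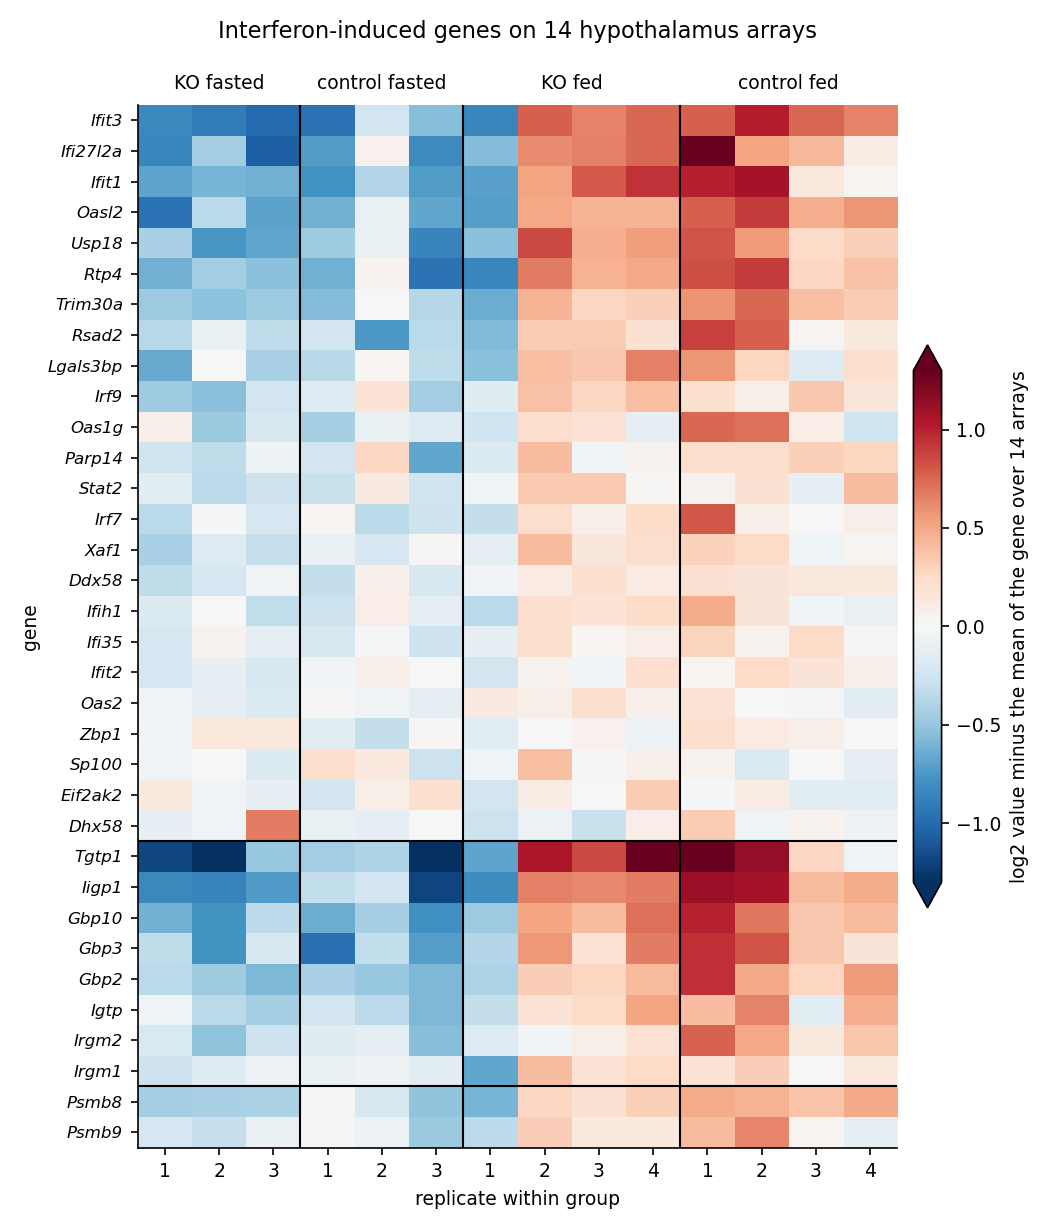
Log2 value of each of the 34 measured members on each array, minus the mean of that gene over 14 arrays, with type I antiviral genes above, immunity GTPases in the middle and antigen presentation below, each ordered by the averaged fasting difference. Values beyond the ends of the colour bar take its end colour. The 6 fasted arrays and KO fed replicate 1 are blue in most rows, and the 7 other fed arrays are red.

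Immunity GTPases attack the membranes around intracellular pathogens, and they held the member with the largest difference. Tgtp1 was at 4.76, 4.45 and 5.45 in KO fasted mice and 5.49, 5.54 and 4.44 in control fasted mice, against 5.26, 7.01, 6.80 and 7.47 in KO fed mice and 7.37, 7.09, 6.21 and 5.89 in control fed mice. The 6 fasted arrays and KO fed replicate 1 lay at 5.54 or below and the 7 other fed arrays at 5.89 or above, and the averaged difference was -1.62 ± 0.35 (SE). Tgtp1 has a near-identical copy, Tgtp2, whose transcripts the probe set may also detect. Iigp1 was at 4.24, 4.21 and 4.34 in KO fasted mice and 4.76, 4.83 and 3.89 in control fasted mice, against 4.26, 5.74, 5.71 and 5.75 in KO fed mice and 6.19, 6.16, 5.49 and 5.56 in control fed mice. Its difference was -1.23 ± 0.24 (SE), with the same separation of arrays as in Tgtp1.

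The guanylate-binding proteins, which coat such membranes after the immunity-related GTPases, gave differences of -1.05 ± 0.17 for Gbp10, -0.97 ± 0.18 for Gbp3 and -0.84 ± 0.13 for Gbp2 (SE). Gbp2 was at 5.19, 5.08 and 4.95 in KO fasted mice and 5.12, 5.05 and 4.95 in control fasted mice, against 5.14, 5.86, 5.82 and 5.95 in KO fed mice and 6.49, 6.03, 5.82 and 6.09 in control fed mice. Fasted arrays and KO fed replicate 1 spanned 4.95 to 5.19, while the 7 other fed arrays spanned 5.82 to 6.49. The probe set of Gbp2 can also bind transcripts of related genes, as its type in the array's naming (x_at) marks. Gbp10 was at 5.15 to 5.60 on fasted arrays, at 5.47 on KO fed replicate 1 and at 6.29 to 6.94 on the 7 other fed arrays. Gbp3 was at 5.35 to 6.11 on fasted arrays, at 5.94 on KO fed replicate 1 and at 6.49 to 7.27 on the 7 other fed arrays.

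Igtp, Irgm2 and Irgm1 form the branch of immunity-related GTPases that regulates the others, and their differences were smaller. Igtp differed by -0.58 ± 0.14, Irgm2 by -0.53 ± 0.10 and Irgm1 by -0.24 ± 0.13 (SE). Irgm1 was at 6.12, 6.22 and 6.31 in KO fasted mice and 6.30, 6.32 and 6.25 in control fasted mice, against 5.71, 6.79, 6.57 and 6.65 in KO fed mice and 6.58, 6.71, 6.40 and 6.53 in control fed mice. KO fed replicate 1 was its lowest array by a wide margin, below every fasted array. Without that array all fasted values of Irgm1 and Irgm2 lay below all fed values, whereas in Igtp control fed replicate 3, at 6.29, lay below KO fasted replicate 1, at 6.37.

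Antigen presentation was represented by the immunoproteasome subunits Psmb8 and Psmb9, which replace constitutive subunits and change the peptides cut for MHC class I. Psmb8 was at 5.22, 5.24 and 5.25 in KO fasted mice and 5.67, 5.45 and 5.13 in control fasted mice, against 5.05, 5.93, 5.86 and 5.97 in KO fed mice and 6.14, 6.11, 6.03 and 6.15 in control fed mice. KO fed replicate 1 was the lowest of all arrays and the 7 other fed arrays lay at 5.86 or above, against 5.67 or below in fasted mice, an averaged difference of -0.58 ± 0.13 (SE). Psmb9, encoded on chromosome 17 like Psmb8, was at 4.29 to 4.75 on fasted arrays and at 4.44 to 5.41 on fed arrays. It differed by -0.35 ± 0.13 (SE), with overlap.

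**Figure D3:**
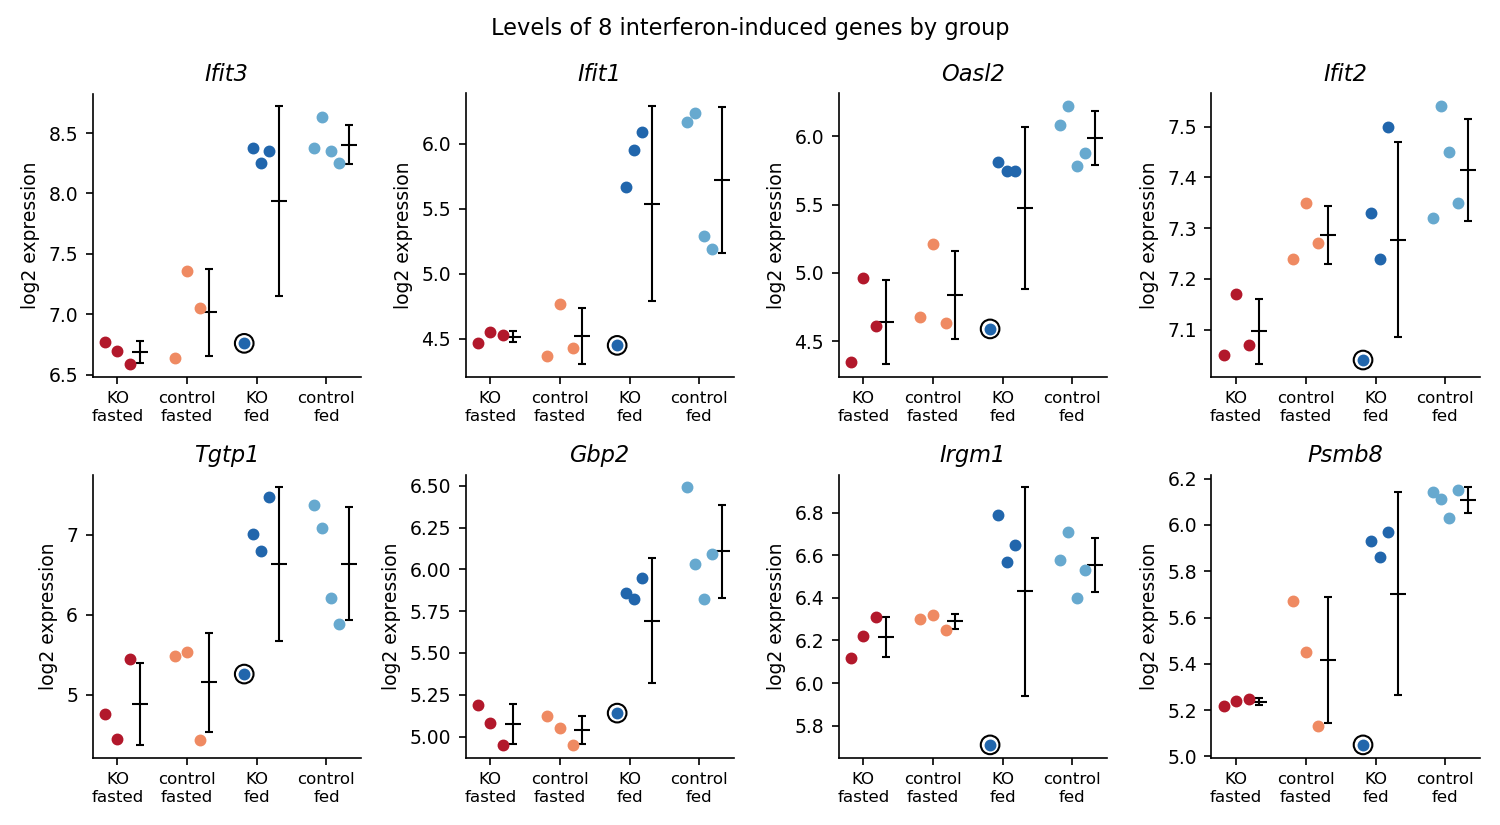
Log2 expression of 8 members by group, with each point 1 array and the bar the group mean ± SD (n = 3 fasted, n = 4 fed in each genotype). The ringed point is KO fed replicate 1, which in all 8 genes lies below the 7 other fed arrays. The vertical axes differ between panels and do not start at 0.

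Over the whole list, 32 of the 34 members were lower in fasted mice, with a median difference of -0.50, against 0.00 over all genes tested. The class medians were -0.91 for the 8 immunity GTPases, -0.46 for the 2 genes of antigen presentation and -0.36 for the 24 type I antiviral genes. At an adjusted p under 0.05 in the limma fit, 21 of 34 were called lower and 0 higher, beside 4.9% of all genes called lower. In control mice alone 6 were called lower, beside 1.12% of all genes. In KO mice alone 0 were called by limma and 21 had an unadjusted p under 0.05, beside 0.228% of all genes called lower and 16.5% with an unadjusted p under 0.05 in either direction. Without KO fed replicate 1 these counts were 25, 14 and 14, with 4.87% of all genes called lower on average, 1.13% in control mice and 0.345% in KO mice. The control count depended on single arrays. It was 3 when fasted replicate 1 of the control mice was left out, 1 without their fasted replicate 3, 3 without their fed replicate 1 and 2 without their fed replicate 2.

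The groups overlapped in all members when every array was kept. All 6 fasted arrays lay below all 8 fed arrays in 0 of 34 members, beside 1.49% of all genes. Below the 7 fed arrays other than KO fed replicate 1 they lay in 17 of 34, beside 2.12% of all genes, namely 9 of 24 type I antiviral genes, 7 of 8 immunity GTPases and 1 of 2 genes of antigen presentation. In control mice the fasted arrays lay below the fed arrays in 19 of 34, beside 8.57%. In KO mice the fasted arrays lay below fed replicates 2 to 4 in 29 of 34, beside 9.3%. To place an array by a single value, each member was centred on its 14-array mean and the members were averaged, which gives the list score. It was -0.38, -0.37 and -0.33 in KO fasted mice and -0.32, -0.13 and -0.45 in control fasted mice, against -0.39, 0.36, 0.26 and 0.36 in KO fed mice and 0.57, 0.46, 0.17 and 0.18 in control fed mice. Thus 1 of the 8 fed arrays had a score within the fasted range.

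KO fed replicate 1 is labelled fed, and its interferon-induced genes were at the level of fasted mice. In 29 of 34 members it lay below the 7 other fed arrays and not above the highest fasted array, beside 15.4% of all genes, and this held for 8 of 8 immunity GTPases, 2 of 2 genes of antigen presentation and 19 of 24 type I antiviral genes. It lay within the fasted range in 27 of 34, beside 63.8% of all genes. Its value minus the mean of KO fed replicates 2 to 4 had a median of -0.59 over the members and ranged from -1.83 for Tgtp1 to -0.00 for Oas2, against a median of -0.01 over all genes. KO fasted mice minus KO fed replicate 1 had a median of 0.02 and ranged from -0.37 to 0.51, against a median of -0.55 for KO fasted mice minus KO fed replicates 2 to 4. The members and KO fed replicate 1 were singled out with these values known, so these counts and medians are a description.

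Plin4, Cdkn1a and Ugt8a, which had large fasting differences and were chosen after their values were seen, were at the fed level on the same array. Plin4, a coat protein of lipid droplets, was at 4.80 on KO fed replicate 1, against 6.98 to 9.0 on fasted arrays and 4.51 to 5.55 on the 7 other fed arrays. Cdkn1a, the cell cycle inhibitor p21, was at 5.98, against 7.57 to 10.47 on fasted arrays and 5.78 to 6.74 on the 7 other fed arrays. Ugt8a, an enzyme of myelin lipid synthesis that is lower in fasted mice, was at 10.67, against 9.10 to 10.06 on fasted arrays and 10.55 to 10.81 on the 7 other fed arrays. Sult1a1, Mfsd2a and Fkbp5 also lay within the range of the 7 other fed arrays. Fabp7 and Ly86, at 10.43 and 8.63, lay below those 7 arrays and above all fasted arrays. Npy, at 9.16, lay within both the fasted range of 9.15 to 9.99 and the range of the 7 other fed arrays, 8.47 to 9.41. On that array most members were therefore at the fasted level and Plin4, Cdkn1a and Ugt8a at the fed level.

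The list score of the members split the arrays by title number, and by feeding state with the exception of KO fed replicate 1. All 7 arrays of the low series had a list score of -0.13 or below, and all 7 of the high series had a score of 0.17 or above. What the numbers stand for is not given. No fasted array belongs to the high series and no control fed array to the low one, so in control mice feeding state and number cannot be told apart. In KO mice the single fed array of the low series, replicate 1, gave the differences stated above. With a covariate that marks the low series, the median averaged fasting difference of the members was 0.06 and 0 of 34 were called lower, a fit in which KO fed replicate 1 alone separates the feeding state from the number. Within the low series a further gap sets control fasted replicates 2 and 3, which have its highest numbers, apart from replicate 1. With a covariate for the 5 lowest title numbers, those below this gap, the median was -0.31. In that fit 31 of 34 members were negative and 2 were called lower. In control mice, fasted replicates 2 and 3 minus fed mice gave a median of -0.54, and fasted replicate 1 minus fed mice gave -0.55.

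**Figure D4:**
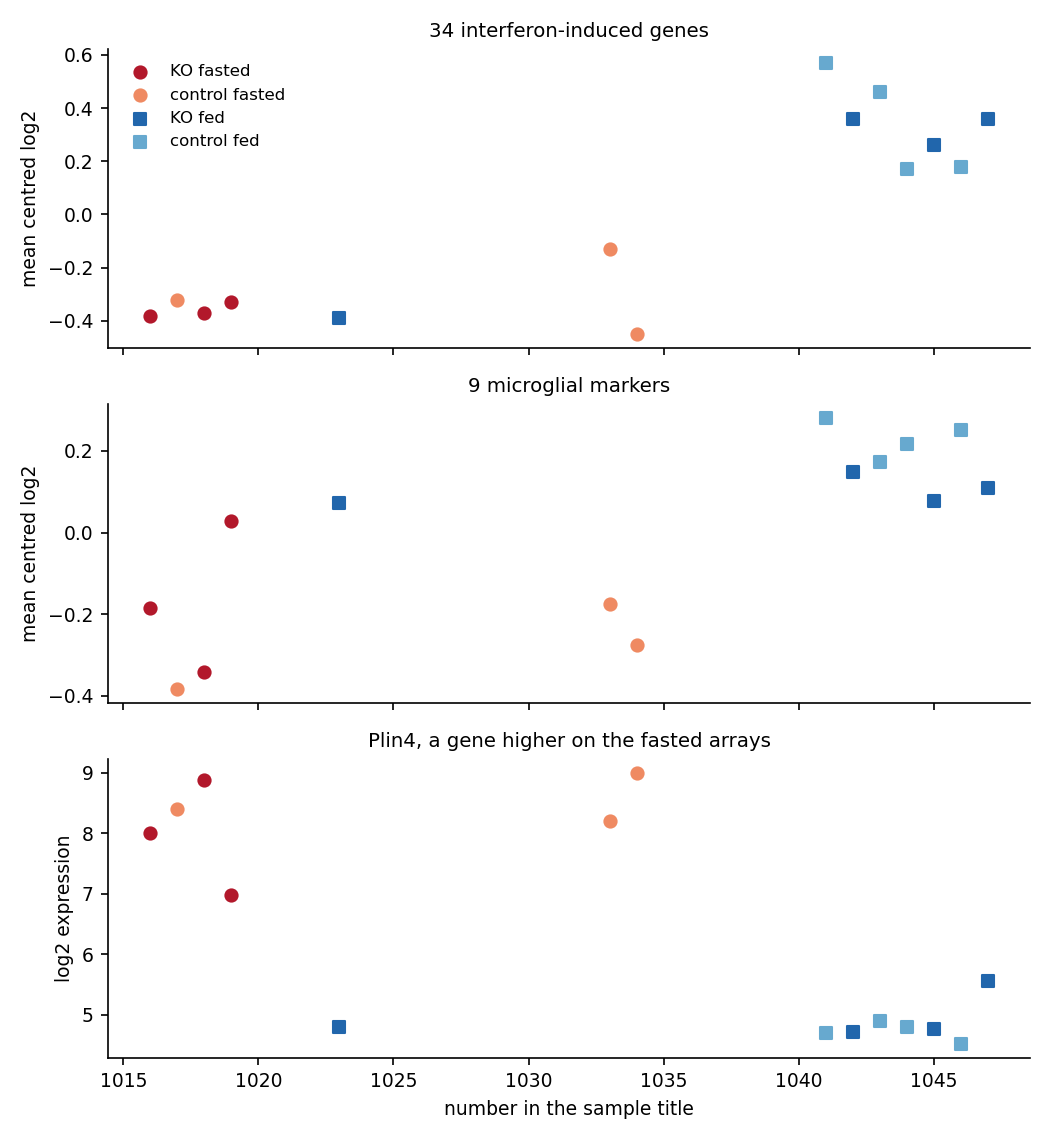
List score of the 34 members (top), list score of 9 microglial markers (middle) and log2 expression of Plin4 (bottom) on each array, plotted by the number in the sample title. Circles are fasted and squares fed arrays. KO fed replicate 1, the square at the left, has a members' score of -0.39 among the fasted arrays and a Plin4 value of 4.80 among the fed arrays.

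Members with a large difference in control mice tended to have a large one on KO fed replicate 1. Across the 34 members, control fasted minus control fed and KO fed replicate 1 minus KO fed replicates 2 to 4 had Pearson's r of 0.85 and Spearman's rho of 0.81, against 0.09 and 0.10 across all genes tested. The 2 differences share no array, although all arrays were normalised together. The first difference was used in choosing the members, and KO fed replicate 1 was singled out with its values known. Genes are not independent replicates, so these values are a description. Irgm1 departed most from the common line, with -0.26 in control mice and -0.96 on KO fed replicate 1.

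**Figure D5:**
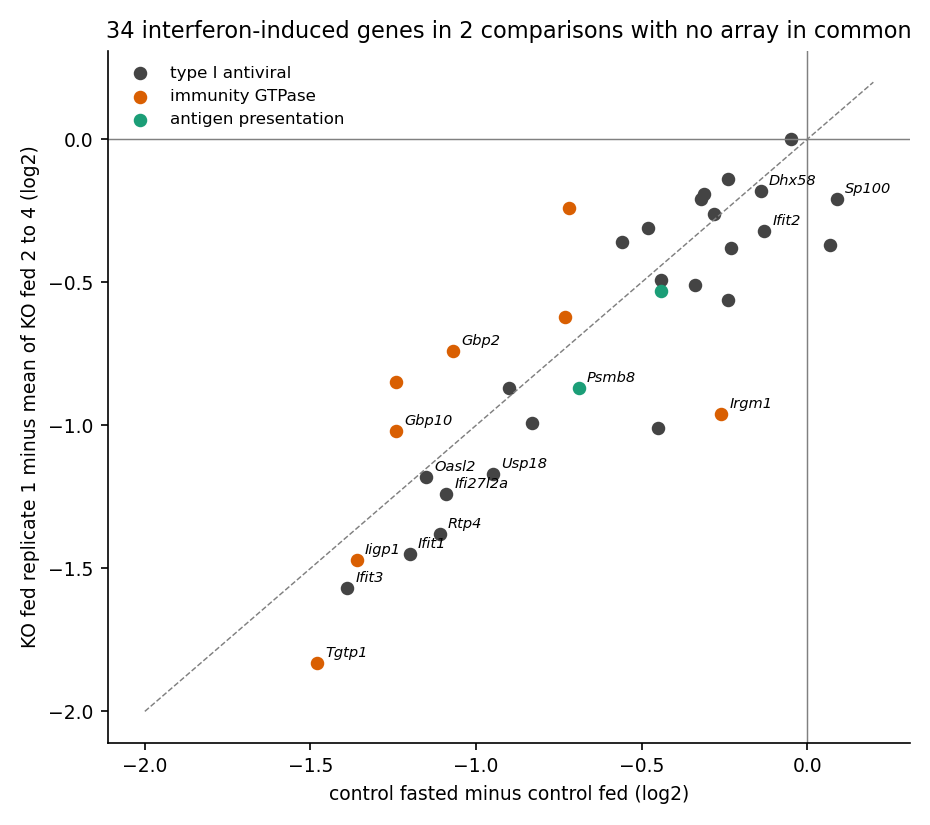
Control fasted minus control fed (horizontal, log2) and KO fed replicate 1 minus the mean of KO fed replicates 2 to 4 (vertical, log2) for the 34 members, coloured by class, with a dashed line of equal difference. Tgtp1, Ifit3 and Iigp1 lie lowest on both axes, and Irgm1 lies below the line.

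No member passed the test of Mfn1 knockout against control mice. In the limma fit 0 of 34 members were called in the averaged genotype difference, in fed mice, in fasted mice or in the interaction, with every adjusted p at 0.995 or above. Of all genes, 0.00585% were called in the averaged difference, 0.00585% in fed mice, 0.0% in fasted mice and 0.0% in the interaction. At an unadjusted p under 0.05 the members numbered 3, 3, 1 and 1, beside 4.65%, 4.62%, 3.86% and 3.82% of all genes. The averaged difference, KO minus control, had a median of -0.10 over the members and ranged from -0.40 for Ifit3 to 0.04 for Zbp1, and 29 of 34 were negative, beside 50.6% of all genes. Without KO fed replicate 1 it ranged from -0.21 to 0.09, 19 of 34 were negative and Ifit3 was at -0.20. The half-width of the 95% interval of a member had a median of 0.28, so a difference smaller than that could not be told from 0 in a typical member. For Ifit3 the interval ran from -0.88 to 0.08. Markers of the choroid plexus, a secretory epithelium of the ventricles, varied widely among control arrays, and among KO arrays they were low only on KO fed replicate 1. Their averaged difference between KO and control mice had a median of 1.27, with 0 of 8 called by limma and 7 at an unadjusted p under 0.05. Their score was 0.79 to 0.82 on KO fasted arrays, -1.21 on KO fed replicate 1 and up to 1.5 on the other KO fed arrays. On control arrays it was -1.42 to 0.66. The choroid plexus marker Ttr was at 9.99 on KO fed replicate 1, against 13.04, 13.04 and 13.14 on KO fed replicates 2 to 4. Their part in the genotype differences of the members was not tested.

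In fed mice the median was -0.18, from -0.52 for Oasl2 to 0.17 for Sp100, and without KO fed replicate 1 it was -0.05. Oasl2 averaged 5.48 ± 0.59 in KO fed mice and 5.99 ± 0.20 in control fed mice (SD, n = 4 each), and KO fed replicates 2 to 4 averaged 5.77 ± 0.03 (SD, n = 3). KO fed replicates 2 to 4 overlapped the control fed arrays in 33 of 34 members, beside 94.7% of all genes. In fasted mice the median was -0.05, from -0.33 for Ifit3 to 0.24 for Dhx58. The interaction, the fasting difference of KO mice minus that of control mice, had a median of 0.18, from -0.30 for Irf9 to 0.57 for Rsad2. Its intervals were wide, with a median half-width of 0.57, and without KO fed replicate 1 its median was -0.02. The averaged genotype difference had a median of -0.02 without that array, and 0 members were called in these contrasts, beside 0.0351% of all genes for the averaged difference, 0.0117% in fed mice and 0.00585% in the interaction.

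Of 134 other genes of the pathway, 115 were measured, and in the averaged fasting contrast 17 were lower and 4 higher at an adjusted p under 0.05 in limma, beside 4.9% of all genes called lower and 5.14% called higher. The count of lower genes ranged from 8 to 25 when 1 array was left out, with 8 each without KO fasted replicate 2 or control fasted replicate 3. It was 9 to 11 without KO fasted replicate 1, any of KO fed replicates 2 to 4, control fasted replicate 1 or control fed replicates 1 or 2, and 25 without KO fed replicate 1. The higher genes numbered 2 without KO fasted replicate 2. With the covariate for the low series of title numbers, 0 were lower and 0 higher. In control mice alone 5 were lower and 1 higher, beside 1.12% and 1.64% of all genes, and in KO mice alone 0 and 1, beside 0.228% and 0.468%. The 5 lower genes in control mice numbered 1 to 3 when any of control fasted replicates 1 to 3 or control fed replicates 1 to 3 was left out. On KO fed replicate 1, 50 of the 115 lay below the 7 other fed arrays and not above the highest fasted array, beside 15.4% of all genes. The interferon ligands were near the background, with Ifnb1 at 3.75 to 4.34 on fasted arrays and at 3.72 to 3.94 on fed arrays, and Ifng at 3.53 to 3.89 on fasted arrays and at 3.45 to 3.76 on fed arrays. Of 8 ligands 0 were called by limma and 1 had an unadjusted p under 0.05, beside 4448 of all 17097 genes.

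Among 15 receptors, kinases, STATs and IRFs, 0 were higher and 2 were lower. Irf1, a transcription factor induced by interferon gamma, differed by -0.37 ± 0.10 (SE, adjusted p = 0.0419). Il10rb, a receptor chain shared by type III interferons and interleukin 10 relatives, differed by -0.51 ± 0.15 (SE, adjusted p = 0.0447). Each kept its call with 4 of the 14 arrays left out in turn and lost it with the others. The highest adjusted p in limma was then 0.0953 for Irf1, without KO fasted replicate 2, and 0.108 for Il10rb, without control fasted replicate 3. The type I receptor chains Ifnar1 and Ifnar2 gave -0.15 ± 0.06 and 0.02 ± 0.05, the type II chains Ifngr1 and Ifngr2 gave 0.15 ± 0.07 and -0.14 ± 0.06 (SE), and these 4 did not pass. Sting1, the adaptor of cytosolic DNA sensing, was the 1 gene called of 11 sensors and adaptors, at -0.34 ± 0.06 (SE, adjusted p = 0.00334). Of 8 genes of negative feedback, Ptpn11 (0.33 ± 0.04, adjusted p = 0.000176) and Pias1 (0.19 ± 0.05, adjusted p = 0.0255), a phosphatase and a SUMO ligase, were higher, and the phosphatase Ptpn6 was lower (-0.22 ± 0.05, adjusted p = 0.0143). Pias1 kept its call with 11 of the 14 arrays left out in turn, and its highest adjusted p in limma was 0.0735.

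Further antiviral genes held 10 of the 17 lower genes and 2 of the 4 higher genes, among 52 measured. Rnf213, a large ubiquitin ligase, was at 5.85, 5.67 and 5.79 in KO fasted mice and 5.79, 6.08 and 5.78 in control fasted mice, against 5.80, 6.68, 6.60 and 6.30 in KO fed mice and 6.67, 6.90, 6.68 and 6.49 in control fed mice. It fell by 0.69 ± 0.12 on the log2 scale (SE, adjusted p = 0.00417), with the 6 fasted arrays and KO fed replicate 1 below the 7 other fed arrays. Ifitm3, which blocks viral entry at membranes, was at 7.25, 7.46 and 7.23 in KO fasted mice and 7.73, 7.33 and 6.95 in control fasted mice, against 7.40, 8.46, 8.40 and 8.26 in KO fed mice and 8.83, 8.57, 8.12 and 7.77 in control fed mice. It showed the same split of arrays and a difference of -0.90 ± 0.20 (SE, adjusted p = 0.0132). Ifi47, an immunity GTPase that had been listed among the antiviral genes, differed by -0.66 ± 0.15 (SE, adjusted p = 0.0139), and Daxx, a nuclear body protein, by 0.20 ± 0.04 (SE, adjusted p = 0.00701). Mx1, a classic antiviral GTPase that carries an inactivating deletion in many laboratory strains, was near the background at 3.80 to 4.07 on fasted arrays and 3.88 to 4.23 on fed arrays and was not called (-0.03 ± 0.06, adjusted p = 0.778).

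Gbp7 was the 1 lower gene of 4 further immunity GTPases, at -0.53 ± 0.11 (SE, adjusted p = 0.00977). Of 17 further genes of antigen presentation, the chaperone Calr (-0.24 ± 0.05, adjusted p = 0.00670) and H2-K1 (-0.46 ± 0.13, adjusted p = 0.0387) were lower. H2-K1, an MHC class I heavy chain, was at 8.69, 8.80 and 8.76 in KO fasted mice and 8.98, 9.08 and 8.62 in control fasted mice, against 8.68, 9.30, 9.34 and 9.66 in KO fed mice and 9.56, 9.35, 9.14 and 9.23 in control fed mice. KO fed replicate 1 lay among the fasted arrays and the 7 other fed arrays lay above all of them. The call of H2-K1 was kept with 3 of the 14 arrays left out in turn, and its highest adjusted p in limma was 0.0958, without control fasted replicate 3. In the genotype contrasts 0 of the 115 genes were called by limma, beside 0.00585% of all genes in the averaged difference. In that difference 7 of the 115 had an unadjusted p under 0.05, beside 4.65% of all genes.

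Markers of microglia, the resident macrophages of the brain and carriers of many interferon-induced genes, were also lower in fasted mice. In the averaged contrast 5 of 9 measured were called lower, beside 4.9% of all genes. In control mice alone 4 were called lower, beside 1.12% of all genes, and in KO mice alone 0, beside 0.228%. The median differences were -0.52 in control mice and -0.23 in KO mice. P2ry12 differed by -0.77 ± 0.10, Aif1 by -0.72 ± 0.11, Trem2 by -0.52 ± 0.07 and Tyrobp by -0.35 ± 0.06 (SE), with adjusted p-values of 0.000638, 0.00172, 0.000820 and 0.00490. With the covariate for the low series the differences were -0.97 ± 0.21, -0.76 ± 0.24, -0.59 ± 0.15 and -0.23 ± 0.13 (SE), and none of the 4 passed, at adjusted p-values of 0.122, 0.262, 0.181 and 0.594 in limma. With the covariate for the 5 lowest title numbers the 4 differences were -0.79 ± 0.13, -0.72 ± 0.15, -0.58 ± 0.09 and -0.28 ± 0.08 (SE). In that limma fit P2ry12, Aif1 and Trem2 passed, at adjusted p-values of 0.0108, 0.0273 and 0.00731, and Tyrobp did not, at 0.0962. In whole tissue, fewer cells of a type and less RNA per cell cannot be told apart. The microglial score was -0.38 to 0.03 on fasted arrays, 0.07 on KO fed replicate 1 and 0.08 to 0.28 on the 7 other fed arrays. P2ry12 was at 7.86 on KO fed replicate 1, against 6.65 to 7.39 on fasted arrays and 7.45 to 7.88 on the 7 other fed arrays. Cx3cr1, Aif1 and Trem2 likewise lay within the range of the 7 other fed arrays. The other 5 of the 9 markers, Tmem119, Csf1r, Tyrobp, C1qa and Itgam, lay below those 7 arrays and not above the highest fasted array, beside 15.4% of all genes. The markers thus differed among themselves on that array, and the part of microglia in the fasting difference of the members was not tested.

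Blood cells can bring interferon-induced transcripts into a tissue sample. Markers of lymphocytes, neutrophils and monocytes had means of 3.7 to 5.03 over 14 arrays. The haemoglobin gene Hba-a1 was at 12.30 to 13.13 on fasted arrays and at 12.49 to 13.32 on fed arrays. Lymphocyte markers had scores of -0.10 to 0.03 on fasted arrays and -0.06 to 0.09 on fed arrays. Of 10 such markers 0 were called by limma and 2 had an unadjusted p under 0.05, beside 4448 of all 17097 genes. Neutrophil markers were called in 0 of 5, with 0 at an unadjusted p under 0.05, and their score was 0.94 on control fed replicate 1, the array with the highest members' score of 0.57, against -0.26 to 0.31 on fasted arrays. Of 7 markers of monocytes and border macrophages 1 was higher and 0 lower. For this and the marker counts that follow, 4.9% of all genes were called lower and 5.14% higher. Of 8 markers of brain endothelium 0 were called higher, and Tek and Cdh5 were lower (-0.64 ± 0.12 and -0.30 ± 0.05, SE). Their adjusted p-values in limma were 0.00665 and 0.00449. The 8 markers went both ways, with a median difference of 0.01, at -0.18 in control mice and 0.18 in KO mice. Of 8 astrocyte markers 4 were higher and 1 lower, and of 7 oligodendrocyte markers 1 was higher and 2 lower. Neurons (0 of 8), choroid plexus (0 of 8) and red blood cells (0 of 3) gave no call in limma and 0 markers at an unadjusted p under 0.05. Of 10 hypothalamic neuropeptides and regulators 1, Npy, was higher (0.78 ± 0.14, SE, adjusted p = 0.00432). The choroid plexus score ranged from -1.42 to 1.5 over the arrays and was -1.21 on KO fed replicate 1, and the hypothalamic score was -0.60 on control fed replicate 1. The part of these cell types in the level of the members was not tested.

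A second look at the same genes came from 19 further probe sets, which 15 of the members have. Of these, 16 had a mean under 5 and 4 had a fasted minus fed difference below -0.5. Those with a higher mean differed by -0.99 for Gbp2, -0.54 for Trim30a and -0.08 for Stat2. The members were spread over many chromosomes, with 8 of the 39 listed genes on chromosome 11, 4 each on chromosomes 5 and 17, and 3 Ifit genes together on chromosome 19.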

How the data were processed

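The 14 hypothalamic RNA samples (150 ng each) were hybridised to 1 Affymetrix HT MG-430 PM array each. The deposited values are log2 expression, and the submitters' processing notes name RMA and affy without a version. RMA corrects background, gives all arrays 1 distribution and summarises probes, which compresses differences of dim probe sets. A genome build for the probe sets is not given in those sources. No column was left out.

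Of 45141 probe sets, 28898 named 1 gene in the platform annotation, 551 named several and 15692 had no name there. Of the gene IDs 99.1% matched RefSeq (GRCm38.p6). Each of 17097 genes was represented by its probe set of highest mean over 14 arrays, and 7180 had more than 1. The level of 23 probe sets without a target served as background.

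A linear model with 1 mean per group was fitted to all 14 arrays in limma 3.58.1 (R 4.3.3), and contrasts of the means were tested after eBayes (10 residual and 3.27 prior degrees of freedom). Tests were two-sided, adjusted by Benjamini-Hochberg over all genes, at a threshold of 0.05. Contrasts were fasted minus fed and knockout minus control, averaged and within groups, and their interaction. Errors of differences are standard errors of this fit. The fit was tested on simulated data with independent noise and 200 of 17097 genes, drawn at random, changed by 0.5. It recovered 92.5% in the averaged fasting contrast, 90.5% in the averaged genotype contrast and 38.5% in the interaction. The genotype contrast gave 79.0% in fed mice and 65.5% in fasted mice. The members vary together and were not drawn at random, so these rates do not apply to them.

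The members, the 7 lists of other pathway genes and the 11 lists of cell type markers were chosen with earlier results of these data known. Every measured member could be named. Of the other pathway genes, up to 4 per list that passed with the smallest p were named, with Irf1, both chains of each interferon receptor, Ifnb1, Ifng and Mx1, and up to 4 markers per list. Plin4, Cdkn1a, Ugt8a and the genes named beside them were chosen after their values were seen. Motifs were searched in RefSeq promoter windows with Python 3.11.15. Alternatives were a filter on low values, averaging all probe sets of a gene, another prior, array weights, 2 covariates from the title numbers, fits of the groups compared alone and leaving out each array.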

Additional observations from a re-analysis of the deposited data

Results flagged for a closer look

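On KO fed replicate 1, 10 members lay far below the other KO fed arrays, by a gap that is large for the group's range (Dixon's test at the 95% level, 4 arrays). The values on that array were 6.76 for Ifit3, 4.59 for Oasl2, 5.53 for Rsad2, 4.56 for Ifih1, 5.23 for Ifi27l2a, 5.60 for Rtp4, 5.05 for Trim30a, 4.26 for Iigp1, 5.14 for Gbp2 and 5.05 for Psmb8. KO fed replicates 2 to 4 averaged 8.33 ± 0.07 for Ifit3, 5.77 ± 0.03 for Oasl2 and 5.73 ± 0.02 for Iigp1 (SD, n = 3). The list score over all members, -0.39, and that of the type I antiviral genes, -0.35, lay apart on the same array. Irf7 was far above the other control fed arrays on control fed replicate 1, at 5.23, against 4.42 to 4.50 on replicates 2 to 4. Of 76 sets of 4 fed arrays examined, 13 stood out in this way, 12 of them on KO fed replicate 1. The members vary together, and the members and this array were singled out with these values known, so the count is a description and no test.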

How the results depend on the processing

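The 0 calls of members in the 4 genotype contrasts, and of other pathway genes in the averaged one, held in every alternative run. The fasting difference of the members moved to near 0 with the covariate for the low series of title numbers, in which KO fed replicate 1 alone separates feeding from number. There the medians were 0.06 over all members, 0.06 for antiviral genes, -0.10 for GTPases, 0.15 for antigen presentation, 0.10 in control mice and 0.02 in knockout mice. Members called lower were 0 on average and 0 in control mice, and other pathway genes were 0 lower, 0 higher and 0 lower in control mice. The members then ranged from -0.32 to 0.60, and 15 of 34 were negative. Genes called in the main fit whose sign changed gave 0.16 for Ifit1, 0.054 for Ifit3, 0.04 for Oasl2, 0.071 for Usp18 and 0.142 for Rsad2. The others of this kind gave 0.288 for Rtp4, 0.153 for Trim30a, 0.06 for Iigp1, 0.183 for Psmb8 and 0.198 for H2-K1. With the covariate for the 5 lowest title numbers, the median over all members was -0.31 and 2 members were called lower. In the same fit other pathway genes were 0 lower and 2 higher, and the genotype difference of Ifit3 was 0.103. After a filter on dim genes the medians were -0.62 for antiviral genes and -0.86 in control mice, over the 18 members left. A trend and robust prior called 2 members lower in knockout mice and 8 other pathway genes lower in control mice, and array weights called 1 member lower in knockout mice. Leaving out 1 array gave medians of -0.56 to -0.44 over all members, and 17 to 25 members called lower on average, 1 to 14 in control mice and 0 to 14 in knockout mice. Other pathway genes were then 8 to 25 lower, 2 to 5 higher and 1 to 7 lower in control mice. The causes of these changes were not tested. No paired analysis was possible because the title numbers all differ and pair no samples. The number of arrays and the low signal of 11 members limit precision.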
